A study of Homo sapiens and Mus musculus with 74 samples.

Results

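Trp53, which encodes the transcription factor p53, and 9 genes that p53 is known to switch on were followed in the kidney and brain of mice that lack the ribosomal protein gene Rpl41. The 10 genes (Trp53, Cdkn1a, Mdm2, Bax, Ccng1, Phlda3, Trp53inp1, Sesn1, Zmat3 and Eda2r) were picked by name, as the p53 gene and targets that respond when ribosomes are disturbed, and not by a rule on measured values. Earlier results of these data were known, however, when the genes were chosen. They were found by symbol among the 55174 genes that the deposited mouse table could be matched to, and each gene stands here for its transcript with the longest annotated protein. All 10 were present in the table.

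In resting cells, p53 protein is kept low by MDM2, a ubiquitin ligase that marks it for destruction and is itself a p53 target. When the assembly of ribosomes fails, free ribosomal proteins such as RPL5 and RPL11 bind MDM2 and release p53, which then drives genes for cell cycle arrest, cell death and stress repair. In kidney, p53 is best known for the response of tubule cells to injury, and in brain for the loss of neurons and neural progenitors. Because p53 is controlled mainly as a protein, the RNA of its targets is the usual readout of its activity.

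RPL41 is a very small ribosomal protein at the contact between the ribosomal subunits, and the study compared mice without it to mice with it to learn how its absence alters translation in tissues. Wild-type (WT, Rpl41+/+) and knockout (KO, Rpl41-/-) males aged 10 weeks on a C57BL/6J background were used, with 3 libraries per genotype in each of 5 kinds of library. These were RNA-seq of poly(A) RNA and Ribo-seq, which reads the mRNA fragments that ribosomes protect (footprints, or RPFs), from kidney and brain, and disome-seq, which reads the longer fragments under stacked ribosomes, from kidney. The KO allele was made by CRISPR-Cas9 in zygotes, removes the whole coding sequence and acts in every cell of the animal from conception on, and whole-tissue lysates mix all cell types. In bulk samples of this kind, fewer cells of a type and less RNA per cell cannot be told apart. The labels number the replicates but do not tie libraries of different assays to the same animal, so that p-values measure the spread between these libraries.

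Values are given as CPM, per-million counts on the transcripts tested, scaled by TMM within each kind of library. Rpl41, the deleted gene, matched the labels in every RNA-seq library. Its RNA lay between 75.5 and 143 CPM in WT kidney and between 0.0534 and 0.195 CPM in KO kidney, and between 91.2 and 129 CPM in WT brain against 0.0531 to 0.153 CPM in KO brain. RNA-seq libraries held 44998381 to 55077048 counts for kidney and 84433838 to 123745890 for brain. Ribo-seq libraries were shallower, at 11036643 to 42452425 counts for kidney and 9498663 to 35881929 for brain, and disome-seq libraries held 1187636 to 3018963 counts. Some libraries stood apart. KO kidney RNA-seq replicates 2 and 3 held 1.76% and 1.67% mitochondrial rRNA, against 0.436% to 0.962% in the other kidney RNA-seq libraries. In WT brain RNA-seq replicate 3 and KO brain RNA-seq replicate 1, 0 of 10 members lay above their mean over the 6 libraries, against 4 to 8 of 10 in the others. KO kidney Ribo-seq replicate 1, the shallowest of its kind, had 1 of 9 members above the mean, as had KO brain Ribo-seq replicate 1, against 3 to 7 of 9 in the other Ribo-seq libraries. The tissues matched their labels, with 8 brain markers summing to 2754 to 3707 CPM in brain RNA-seq and to at most 9.38 CPM in kidney RNA-seq. Markers of other cells moved with genotype in kidney Ribo-seq: 9 immune markers summed to 89.7 to 133 CPM in WT and 157 to 176 CPM in KO, and 12 pancreas markers to 13.2 to 223 CPM in WT and 5.23 to 9.17 CPM in KO. In kidney RNA-seq the sums of both lists overlapped between genotypes. In brain Ribo-seq, 5 blood markers summed to 636 to 1841 CPM in WT and 346 to 443 CPM in KO. Their part in the values below was not tested.

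The genome near the starts of the members was searched for the p53 response element, since binding of p53 there is what defines a direct target. The element was taken as a pair of adjacent sites of 10 bases, each with 3 purines, a core of C, 2 bases that are A or T, and G, and 3 pyrimidines, with at most 1 mismatch outside the C and G of the cores. The pattern reads the same on both strands, so both were covered. Within 3000 bases on each side of the transcript start, 3 of the 10 members held an element, for 4 elements in all, against 0.9% of 22471 coding genes (209 genes). The letters below are from GRCm38 and show the candidate sites of these 3 targets, with the cores in capitals. The Cdkn1a element lies at chr17:29090928-29090947 on the plus strand, just before the first base of the annotated gene at 29090976 and 2844 bases before the start of the transcript counted here. The Ccng1 elements lie on the minus strand, at chr11:40755462-40755481, 160 bases before the transcript start, and at chr11:40754936-40754955, in intron 1. The Zmat3 element lies at chr3:32364331-32364350 on the minus strand, also in intron 1, and alone of the 4 has no mismatch.
Cdkn1a element: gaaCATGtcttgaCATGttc
Ccng1 upstream element: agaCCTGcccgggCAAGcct
Ccng1 intron element: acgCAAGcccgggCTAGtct
Zmat3 element: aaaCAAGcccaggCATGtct
These are matches of letters in a window. For the other 7 members, no match says only that these letters are not within the window searched.

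None of the members passed the test in the RNA of either tissue. In kidney RNA-seq, 9 members had enough counts to be tested, and 0 passed a Benjamini-Hochberg adjusted p of 0.05 in edgeR's quasi-likelihood test, where 0.00992% of 70545 transcripts passed. None of the 9 had an unadjusted p under 0.05 (16.8% of all transcripts did), DESeq2 called 0 (0.765% of all) and limma voom 1, Mdm2, in a setting that called 41.6% of all transcripts. The median log2 change of the 9 was 0.03, against -0.03 over all transcripts, with 5 above zero and 4 below. Over coding genes taken by 1 transcript each, the kidney RNA median was 0.10, with 38.3% below zero. In brain RNA-seq, 0 of 10 members passed (0.0134% of 89237 transcripts), 0 had an unadjusted p under 0.05 (3.46% of all), and DESeq2 (0.0258% of all) and limma voom (0.192% of all) called 0. The median there was 0.11 against -0.02 over all transcripts, with 7 values above zero and 3 below. Over coding genes the brain RNA median was also 0.10, with 31.1% below zero, so the members lay near the coding genes.

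Footprints gave 1 call among the members. In kidney Ribo-seq, 1 of 9 members passed the test, Bax, which was lower in KO, while 7.76% of 75266 transcripts passed, 3.01% lower and 4.75% higher. A count of 1 in 9 is near that background. A further member, Trp53, had an unadjusted p under 0.05, as did 25.3% of all transcripts. The median of the 9 was -0.25 against -0.01 over all transcripts, and 7 of the 9 values lay below zero. Of all transcripts 51.6% lay below zero, and of coding genes taken by 1 transcript each 52.5% (median -0.02). In brain Ribo-seq, 0 of 9 members passed in edgeR, DESeq2 or limma voom (0.0345% of 81112 transcripts in edgeR, 0.443% in DESeq2 and 0.138% in limma voom), and 2 had an unadjusted p under 0.05, Bax and Zmat3 (12.6% of all). The median was -0.14 against -0.01 over all transcripts, with 6 of 9 values below zero. The shares below zero were 52.3% of all transcripts and 54.4% of coding genes (median -0.03).

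**Figure D1:**
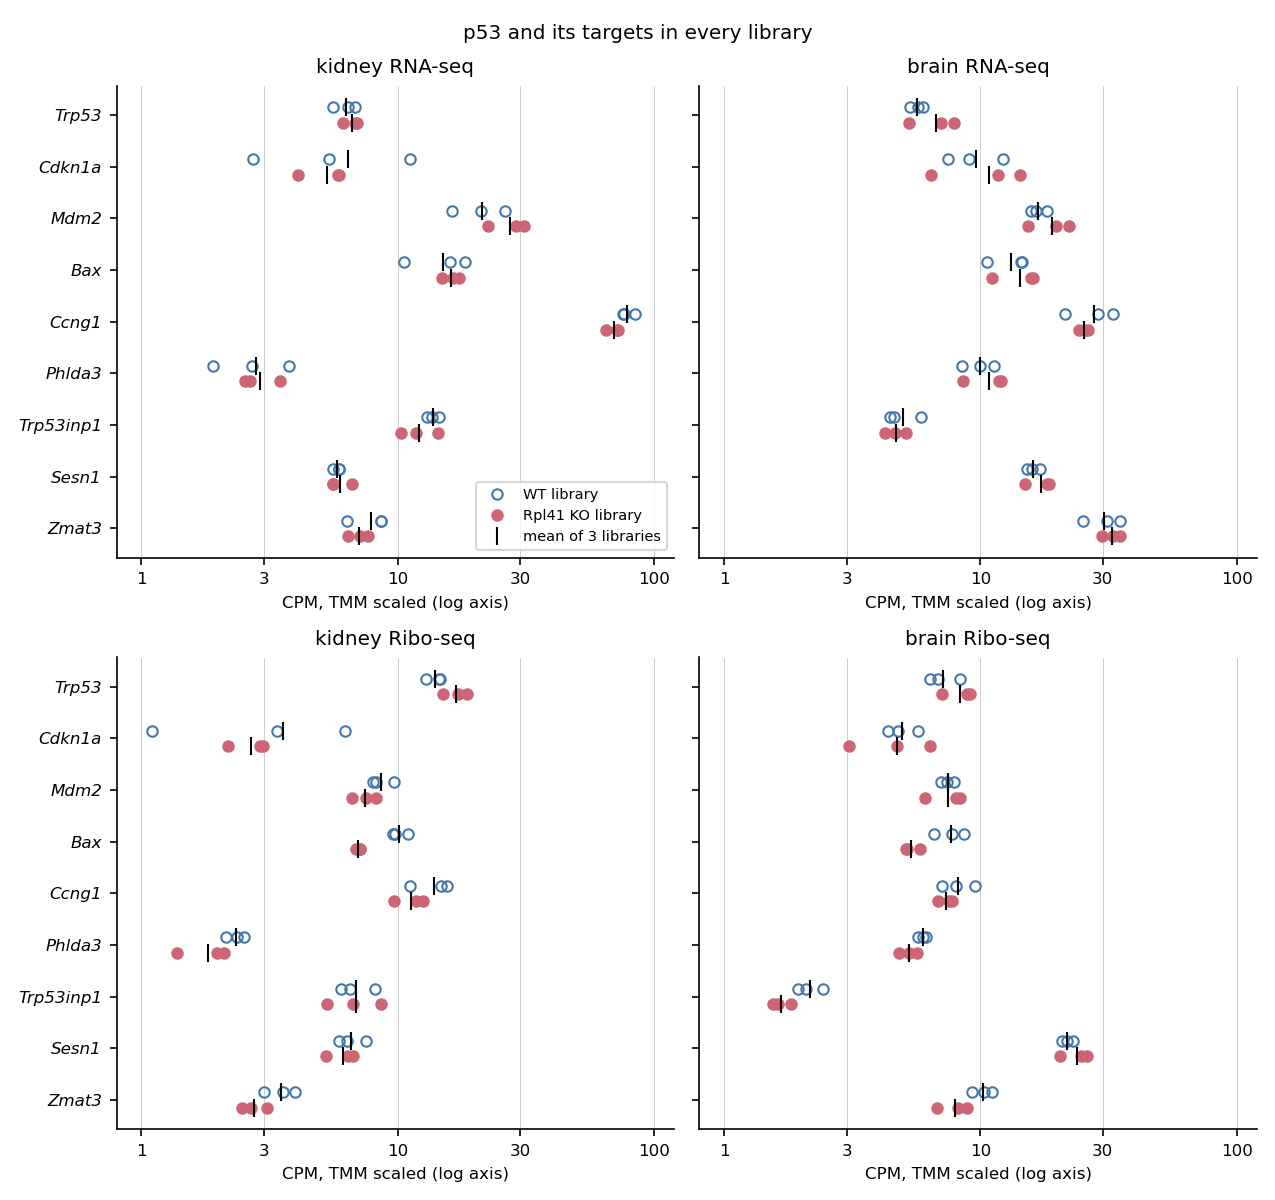
CPM of 9 members (Eda2r, near the floor, is left out) in each of the 24 RNA-seq and Ribo-seq libraries, on a log axis, with open circles for WT, filled circles for Rpl41 KO and a bar for the mean of 3 libraries. In kidney Ribo-seq the 3 KO values of Bax sit between 6.86 and 7.13 CPM, below all 3 WT values, while in both RNA-seq panels the Bax circles of the genotypes overlap.

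Translation efficiency (TE), the footprint change relative to the RNA change, was tested as the assay by genotype term over 12 libraries per tissue. In kidney, 0 of 10 members passed, as did 0.0% of 89685 transcripts in edgeR, while 1 member, Bax, was among the 18.9% with an unadjusted p under 0.05. In brain, 0 of 10 members passed, as did 0.0% of 98861 transcripts, and Bax alone was among the 4.73% with an unadjusted p under 0.05. DESeq2 called 0 members in either tissue, where it called 4.6% of all transcripts in kidney and 0.0182% in brain. Of the 10 log2 values, 8 lay below zero in kidney (median -0.16, against 0.07 over all transcripts) and 6 in brain (median -0.15, against 0.03). The 10 include Eda2r, at -0.99 in kidney and 0.80 in brain. Its counts were too few for a test of footprints in either tissue or of RNA in kidney. Over coding genes taken by 1 transcript each, the TE median was -0.13 in kidney (59.3% below zero) and -0.09 in brain (61.3%).

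**Figure D2:**
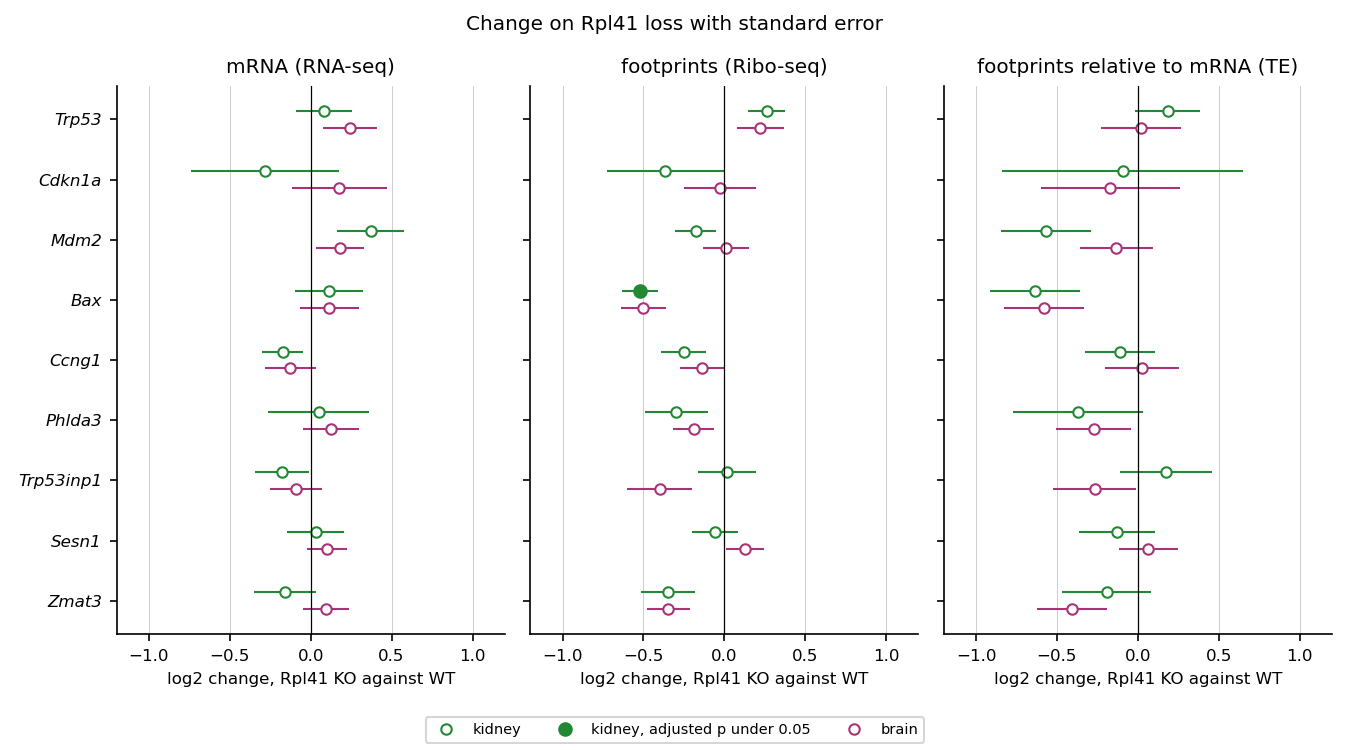
Log2 change in Rpl41 KO against WT of RNA, footprints and TE for 9 members (rows), with kidney in green, brain in purple and bars for the standard error. The filled circle marks the single value with an adjusted p under 0.05, Bax footprints in kidney at -0.52, and the brain value of Bax lies beside it at -0.50.

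Trp53 (chr11:69580359-69591873, plus strand, GRCm38), the gene of p53 itself, did not pass the test in any comparison of genotypes. Intervals here and below are 95% intervals of the log2 change. In kidney RNA-seq, Trp53 read 6.81, 5.61 and 6.37 CPM in the WT libraries and 6.83, 6.96 and 6.10 CPM in the KO libraries. These overlap, and the log2 change was 0.08 (interval -0.32 to 0.49, adjusted p = 0.797). In kidney Ribo-seq it read 14.6, 12.9 and 14.5 CPM in WT and 18.7, 17.2 and 15.0 CPM in KO. All 3 KO libraries lay above all 3 WT libraries, as they did for 15.5% of all transcripts, but the log2 change of 0.26 (interval 0.02 to 0.50) did not pass the test (adjusted p = 0.167). In brain Ribo-seq, Trp53 read 8.31, 6.81 and 6.37 CPM in WT and 7.05, 8.87 and 9.13 CPM in KO, with overlap and a log2 change of 0.22 (standard error 0.15, adjusted p = 0.554). Brain RNA-seq gave 5.98, 5.70 and 5.30 CPM in WT and 5.25, 7.02 and 7.85 CPM in KO, where replicate 1 was the lowest of all 6 and the other two KO libraries the highest. Its log2 change was 0.24 (interval -0.14 to 0.63, adjusted p = 0.898).

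Footprint reads of Trp53 are partly ambiguous. Of the 28-base stretches of the transcript, 23.9% also occur in Trp53-ps, a processed pseudogene, and the authors allowed reads that map to several places. Trp53-ps held 74 to 163 counts in WT and 90 to 293 in KO kidney Ribo-seq, but 0 to 4 in kidney RNA-seq. How many of these came from Trp53 was not tested.

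Mdm2 (chr10:117688875-117710758, minus strand), the ubiquitin ligase that restrains p53 and the classic target through which p53 limits itself, had the highest log2 RNA value of the 9 members tested in kidney but did not pass. It read 21.2, 26.3 and 16.4 CPM in WT kidney RNA-seq and 22.5, 29.1 and 31.0 CPM in KO. The genotypes overlap, since WT replicate 2 exceeds KO replicate 1, and KO replicates 2 and 3 are the highest of the 6. The log2 change was 0.37 (interval -0.11 to 0.85, adjusted p = 0.347), and 0.08 without KO replicates 2 and 3, the libraries rich in mitochondrial rRNA. Under limma voom with quality weights the value was 0.49 with an adjusted p of 0.00987.

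In footprints, the Mdm2 value lay on the other side of zero. Kidney Ribo-seq gave 8.22, 8.00 and 9.70 CPM in WT and 6.62, 7.56 and 8.22 CPM in KO, overlapping values with a log2 change of -0.18 (interval -0.45 to 0.09, adjusted p = 0.399). The TE value in kidney was -0.57 (interval -1.17 to 0.03, adjusted p = 0.287), and -0.30 without those same KO RNA-seq replicates. In brain, Mdm2 RNA read 18.1, 16.5 and 15.7 CPM in WT and 15.3, 22.1 and 19.7 CPM in KO, and its log2 change was 0.18 (interval -0.16 to 0.52, adjusted p = 0.898). Brain footprints ran from 7.03 to 7.88 CPM in WT and from 6.09 to 8.33 CPM in KO, with a log2 change of 0.01 (interval -0.29 to 0.32). KO brain replicate 1 was the lowest and KO replicate 3 the highest in that set.

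Cdkn1a (chr17:29090976-29100727, plus strand) encodes p21, the inhibitor of cyclin-dependent kinases through which p53 halts the cell cycle, and is the member most often read as a sign of p53 activity. It read 5.38, 11.2 and 2.72 CPM in WT kidney RNA-seq and 4.07, 5.90 and 5.88 CPM in KO. The WT libraries spread more widely than the KO libraries and enclose all 3 of them. The log2 change was -0.28 (interval -1.33 to 0.76, adjusted p = 0.728), and 0.38 without WT replicate 2, so its direction rests on that library. Kidney footprints read 3.40, 6.25 and 1.10 CPM in WT and 2.17, 2.99 and 2.89 CPM in KO. Again WT replicate 2 was the highest and WT replicate 3 the lowest, and the log2 change of -0.36 (interval -1.14 to 0.41, adjusted p = 0.564) became 0.18 without WT replicate 2.

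In brain, Cdkn1a RNA read 8.99, 12.3 and 7.46 CPM in WT and 6.44, 11.7 and 14.3 CPM in KO, with a KO library at each end of the order. Its log2 change was 0.17 (interval -0.50 to 0.85, adjusted p = 0.907). Brain footprints ran from 4.37 to 5.73 CPM in WT and from 3.07 to 6.36 CPM in KO, for a log2 change of -0.03 (interval -0.50 to 0.45). The RNA intervals reach up to 0.76 in kidney and 0.85 in brain, so rises up to these values lie within them. These ends are not limits of detection. The standard errors were 0.46 in kidney and 0.29 in brain.

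Ccng1 (chr11:40748552-40755311, minus strand) encodes cyclin G1, which works with MDM2 in the feedback on p53. Its kidney RNA read 84.2, 76.3 and 75.7 CPM in WT and 71.9, 65.2 and 72.4 CPM in KO. All 3 KO libraries lay below all 3 WT libraries, as for 10.1% of all transcripts (another 10.1% lay wholly above), yet the log2 change was only -0.17 (interval -0.46 to 0.12, adjusted p = 0.442). Kidney footprints ran from 11.2 to 15.7 CPM in WT and from 9.68 to 12.5 CPM in KO, with overlap and a log2 change of -0.25 (interval -0.55 to 0.05, adjusted p = 0.283). In brain, Ccng1 RNA read 28.9, 33.0 and 21.4 CPM in WT and 26.3, 25.7 and 24.3 CPM in KO, with the KO libraries inside the WT range. The brain log2 change was -0.13 (interval -0.49 to 0.24, adjusted p = 0.898). Without WT replicate 3 and KO replicate 1 of brain RNA-seq, a setting chosen after the data were seen, it was -0.32 and was called, where 10.5% of 88360 transcripts passed. Those libraries are the ones in which 0 of 10 members lay above their mean. They hold the lowest WT and the highest KO value of Ccng1, so leaving them out lowers its change. This call is therefore not a test of Ccng1. No brain RNA member had genotypes that did not overlap with all 6 libraries in, against 9.51% of all transcripts.

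Bax (chr7:45461697-45466898, minus strand), the pore-forming BCL2 family protein that opens mitochondria to start cell death, fell in kidney footprints, while its RNA did not pass the test. It read 9.75, 11.0 and 9.55 CPM in WT kidney Ribo-seq and 7.11, 6.86 and 7.13 CPM in KO, or 10.1 ± 0.759 against 7.03 ± 0.153 CPM (SD, n = 3). The 3 KO libraries lay below all 3 WT libraries, as for 14.3% of all transcripts, and close to each other. The log2 change was -0.52 (standard error 0.11, interval -0.76 to -0.28), a fold of 0.697, with an adjusted p of 0.0176. In kidney RNA-seq, Bax read 16.0, 18.3 and 10.6 CPM in WT and 17.4, 14.9 and 16.4 CPM in KO. These values overlap, with a log2 change of 0.11 (interval -0.37 to 0.60, adjusted p = 0.765).

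In brain, the footprint value of Bax was close to that of kidney but did not pass. Brain Ribo-seq read 6.60, 8.65 and 7.72 CPM in WT and 5.80, 5.18 and 5.10 CPM in KO. Again all 3 KO libraries lay below all 3 WT libraries, which held for 8.7% of all transcripts. The log2 change was -0.50 (standard error 0.14, interval -0.80 to -0.20), with an adjusted p of 0.238. Brain RNA-seq read 14.5, 14.4 and 10.6 CPM in WT and 11.1, 16.0 and 15.8 CPM in KO, which overlap, with a log2 change of 0.12 (interval -0.30 to 0.53, adjusted p = 0.905). The difference between the tissues in the footprint change of Bax was 0.03 on the log2 scale (interval -0.34 to 0.39).

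Relative to its RNA, Bax had a TE value of -0.63 in kidney (interval -1.24 to -0.03, adjusted p = 0.246) and -0.58 in brain (interval -1.11 to -0.05, adjusted p = 0.895), neither past the test. Over 21 alternative settings the kidney TE value stayed between -0.82 and -0.41 and the brain TE value between -0.73 and -0.44. All 5 coding transcripts of Bax were tested in kidney Ribo-seq, with log2 values from -0.70 to -0.39, and 4 of them passed, although isoforms share most of their reads. The call depends on single libraries. It was lost without WT replicate 2 (-0.46, adjusted p = 0.0637, with 3.42% of all transcripts called), without KO replicate 2 (-0.50, adjusted p = 0.0963, 0.713%) and without KO replicate 3 (-0.53, adjusted p = 0.0883, 0.392%). Over 14 alternatives the value stayed between -0.59 and -0.46.

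Bax shares sequence with another gene model. Of its 28-base stretches, 19.8% also occur in Gm45808, a model that overlaps Bax and shares 2 of its exons, and that held 79 to 159 counts in WT and 54 to 241 in KO kidney Ribo-seq. These too are raw counts, not scaled for depth. Immune and pancreas markers moved in the same kidney libraries, with the sums given above, and their part in the Bax value was not tested.

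**Figure D3:**
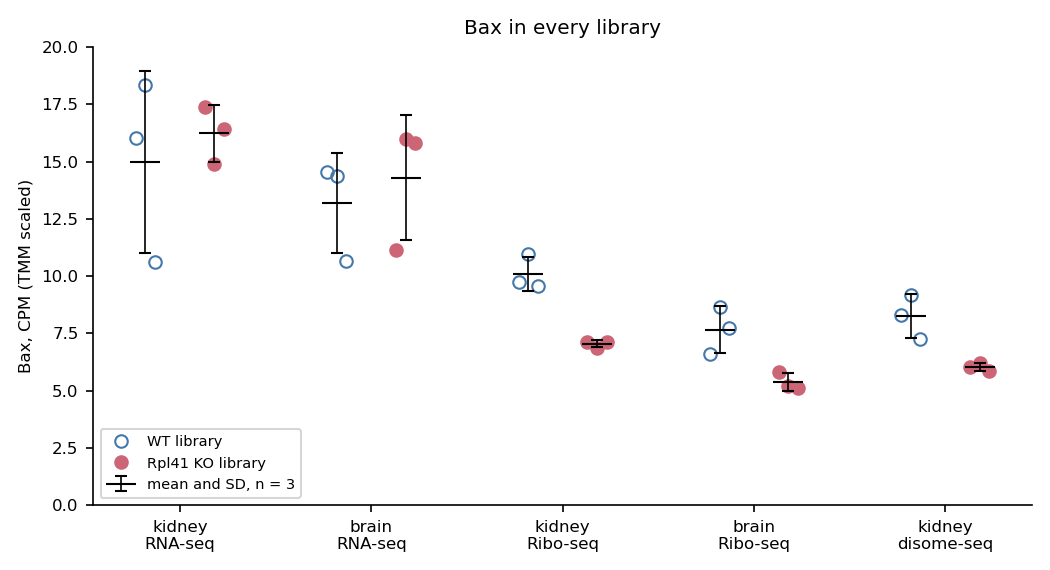
Bax in all 30 libraries as CPM, with open circles for WT, filled circles for Rpl41 KO, and the mean with its SD (n = 3). In the 2 RNA-seq sets the genotypes overlap, and in kidney Ribo-seq, brain Ribo-seq and disome-seq each KO library lies below each WT library.

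Trp53inp1 (chr4:11156431-11174379, plus strand) and Phlda3 (chr1:135766119-135769136, plus strand) act on the death side of the response, Trp53inp1 as a stress protein that promotes autophagy and the death program of p53, and Phlda3 as a PH domain protein that competes with AKT for membrane lipids. Trp53inp1 RNA read 14.4, 13.7 and 13.0 CPM in WT kidney and 11.7, 10.3 and 14.3 CPM in KO. KO replicate 3 lies within the WT range and the other two below it, and the log2 change was -0.18 (interval -0.56 to 0.21, adjusted p = 0.548). Kidney footprints overlapped fully, at 5.99 to 8.13 CPM in WT and 5.32 to 8.61 CPM in KO, for a log2 change of 0.02 (interval -0.38 to 0.41), which was -0.23 without KO replicate 3. Brain footprints read 2.09, 1.95 and 2.42 CPM in WT and 1.82, 1.62 and 1.54 CPM in KO. Here the KO libraries lay below the WT libraries without overlap, and the log2 change was -0.40 (interval -0.83 to 0.03, adjusted p = 0.432). Brain RNA of Trp53inp1 overlapped (log2 change -0.09, interval -0.46 to 0.28, adjusted p = 0.910).

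Phlda3 had few counts in kidney. Its kidney RNA read 2.71, 3.78 and 1.90 CPM in WT and 2.54, 3.48 and 2.66 CPM in KO, with the KO libraries inside the WT range (log2 change 0.05, interval -0.67 to 0.76). Kidney footprints read 2.52, 2.35 and 2.13 CPM in WT and 1.38, 2.10 and 1.96 CPM in KO. The KO libraries lay below, by a narrow margin between WT replicate 3 and KO replicate 2, and the log2 change was -0.30 (interval -0.72 to 0.12, adjusted p = 0.364). Brain footprints read 6.12, 5.73 and 5.97 CPM in WT and 5.63, 5.26 and 4.82 CPM in KO. They too did not overlap, with a log2 change of -0.19 (interval -0.47 to 0.09, adjusted p = 0.568), while brain RNA did (8.43 to 11.3 CPM in WT and 8.57 to 12.1 CPM in KO, log2 change 0.13, adjusted p = 0.900).

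Eda2r (chrX:97333840-97377216, minus strand), a receptor of the tumor necrosis factor family, could hardly be measured. It had 3, 3 and 11 counts in the WT and 0, 6 and 8 counts in the KO kidney RNA-seq libraries, and 17, 16 and 2 against 14, 7 and 6 counts in brain RNA-seq. Several libraries lie at or under a floor of 3 counts, and of the single sets only brain RNA-seq could be tested. Its brain log2 change was -0.44 (interval -2.00 to 1.12, adjusted p = 0.905).

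Sesn1 (chr10:41809935-41908424, plus strand) encodes sestrin 1, which restrains the growth kinase mTORC1 under stress, and its values lay close to zero throughout. Kidney RNA read 5.62, 5.91 and 5.90 CPM in WT and 5.61, 5.59 and 6.63 CPM in KO. These overlap, with a log2 change of 0.03 (interval -0.37 to 0.44, adjusted p = 0.927). Kidney footprints ran from 5.88 to 7.53 CPM in WT and from 5.24 to 6.72 CPM in KO (log2 change -0.06, interval -0.36 to 0.24). In brain, footprints ran from 20.8 to 23.0 CPM in WT and from 20.4 to 26.2 CPM in KO (log2 change 0.13, interval -0.13 to 0.38, adjusted p = 0.684), and RNA gave 0.10 (interval -0.18 to 0.38, adjusted p = 0.898).

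Zmat3 (chr3:32334792-32366014, minus strand) encodes a zinc finger protein that binds RNA and shapes splicing and mRNA stability downstream of p53. Its brain footprints read 9.30, 11.1 and 10.3 CPM in WT and 6.77, 8.84 and 8.19 CPM in KO. All KO libraries lay below all WT libraries, and the log2 change was -0.35 (interval -0.64 to -0.06), with an adjusted p of 0.325. Kidney footprints read 3.98, 3.56 and 3.01 CPM in WT and 2.47, 3.08 and 2.69 CPM in KO, with KO replicate 2 just above WT replicate 3. The log2 change was the same as in brain, -0.35 (interval -0.71 to 0.02, adjusted p = 0.219). RNA of Zmat3 gave -0.16 in kidney (interval -0.60 to 0.28, adjusted p = 0.641) and 0.10 in brain (interval -0.23 to 0.42, adjusted p = 0.904), and both sets of libraries overlapped.

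Over the members, 3 had kidney footprints without overlap between genotypes, Trp53 above and Bax and Phlda3 below, against 15.5% and 14.3% of all transcripts. In brain footprints, 4 of 9 lay wholly below (Bax, Phlda3, Trp53inp1 and Zmat3) and 0 wholly above, against 8.7% and 9.4% of all transcripts. Without KO replicate 1 of brain Ribo-seq, which stood low for most members, their log2 changes were -0.55 for Bax, -0.24 for Phlda3, -0.46 for Trp53inp1 and -0.25 for Zmat3. These counts are descriptions, since the members share libraries and only 1 of these values, Bax in kidney, passed the test.

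Disome-seq of kidney, which is far shallower, had enough counts to test 6 members. None passed in edgeR, DESeq2 or limma voom (0.201% of 34754 transcripts in edgeR, 0.184% in DESeq2 and 0.377% in limma voom), and 0 had an unadjusted p under 0.05 (10.8% of all). Bax read 8.30, 9.18 and 7.25 CPM in WT and 6.03, 6.20 and 5.85 CPM in KO. The genotypes did not overlap, as for 8.9% of transcripts on the lower side, but these values stand for 6 to 27 counts per library, and the log2 change was -0.48 (interval -1.15 to 0.19, adjusted p = 0.620). The other values were -0.32 for Mdm2, -0.24 for Ccng1, -0.06 for Trp53, -0.03 for Trp53inp1 and 0.07 for Sesn1, with adjusted p from 0.708 to 0.984. Relative to single-ribosome footprints, 0 of 9 members passed (0.0% of 67065 transcripts), 0 had an unadjusted p under 0.05 (5.84% of all) and DESeq2 called 0 (0.0149% of all). Among these 9 are Cdkn1a, Phlda3 and Zmat3, which had too few disome counts to be tested in disome-seq alone. For them this term could hardly have passed. The Bax value there was 0.07 (interval -0.56 to 0.69).

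The response of the members was then compared between tissues by the tissue by genotype term. For RNA, 0 of 10 members passed (0.00108% of 92865 transcripts) and 0 had an unadjusted p under 0.05 (8.47% of all). For footprints, 0 of 9 passed (0.0767% of 88666 transcripts) and 0 had an unadjusted p under 0.05 (7.63% of all). DESeq2 and limma voom called 0 members in both. Over all transcripts DESeq2 called 0.113% and limma voom 15.7% for RNA, and 0.255% and 0.14% for footprints. The widest gap in RNA change was that of Cdkn1a, at 0.51 (brain minus kidney, interval -0.78 to 1.81), and in footprint change that of Trp53inp1, at -0.42 (interval -1.02 to 0.19). For Bax, the gap in RNA change was 0.05 (interval -0.64 to 0.73).

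The members encode proteins of 125 to 551 residues, and footprint changes over all coding genes ran with protein length in both tissues. Among coding genes taken by 1 transcript each, kidney footprints had a median log2 change of -0.24 for the 1808 genes with proteins of at most 200 residues (85.6% below zero), -0.10 for 3760 genes of over 200 and up to 400 residues (66.7%) and 0.10 for 7886 genes of over 400 residues (38.1%). The brain medians were -0.19, -0.07 and 0.04. The 3 members of at most 200 residues are Phlda3 (125), Cdkn1a (159) and Bax (192), and all 3 values were below zero in both tissues. The 4 tested members of the middle class, Trp53inp1 (239), Zmat3 (290), Ccng1 (294) and Trp53 (390), had a median of -0.12 in kidney and -0.24 in brain. Mdm2 (489) and Sesn1 (551) gave -0.18 and -0.06 in kidney and 0.01 and 0.13 in brain.

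Set against genes of its own size, Bax in kidney lay below the median of -0.24, and 10.1% of genes with proteins of at most 200 residues were called lower, against 4.55% and 2.19% in the longer classes. Phlda3, at -0.30 in kidney and -0.19 in brain, lay near the median of its class in both tissues. Trp53, at 0.26 in kidney and 0.22 in brain, lay above the medians of its class in both. Across the 9 members, Spearman's rho of length and footprint change was 0.62 in kidney and 0.63 in brain, beside 0.42 over 13454 and 0.34 over 14465 coding genes. These are correlations across genes of the same libraries and are given as descriptions. RNA ran the other way, with a median of 0.26 in kidney and 0.15 in brain for the shortest class. Of the 3 short members, 1 lay below zero in kidney RNA, Cdkn1a, and 0 in brain RNA.

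The start codons of the members were looked at because the letters around them set how readily ribosomes begin. A purine 3 bases before the start codon was found in 6 of 10 members and 84.0% of 20455 coding genes, a G right after it in 3 of 10 and 49.4%, and both in 3 of 10 (Bax, Sesn1 and Eda2r) and 41.1%. The contexts below are those of Bax, whose footprints fell in kidney, and of Trp53 and Mdm2, which control each other, from the GENCODE M21 transcripts with the start codon in capitals. Bax thus holds both of the favoured letters at its annotated start, and Trp53 and Mdm2 hold neither at theirs. The Trp53 stretch holds a further ATG in the same frame, with a purine 3 bases before it and G right after it. The Mdm2 stretch ends in a further ATG in the same frame, with a purine 3 bases before it. Which of these starts ribosomes use was not tested.
Bax start: gcagtgATGgacgggtccggggag
Trp53 start: gactggATGactgccatggaggag
Mdm2 start: aggccaATGtgcaataccaacatg

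The wider p53 network was read from lists taken by known role, some of which share genes. Of 33 further p53 target genes, 31 were tested in kidney RNA-seq and 32 in brain RNA-seq, and 0 passed in either. Their medians were -0.03 in kidney and 0.07 in brain. Over all transcripts the medians were -0.03 and -0.02, and over coding genes 0.10 in both tissues. Of the targets, 5 and 2 had an unadjusted p under 0.05, as did 16.8% and 3.46% of all transcripts. The 2 with the smallest p in kidney RNA were Tap1, which carries peptides for antigen display, at 0.94 (adjusted p = 0.292), and Dcxr, a carbonyl reductase, at 0.43 (adjusted p = 0.292). In brain RNA they were Ckap2, a spindle protein, at 1.11, and Dcxr, at 0.49, both with an adjusted p of 0.898. In kidney footprints, 1 of 28 rose and 0 fell, near the 4.75% and 3.01% of all transcripts called higher and lower. The gene that rose was Tap1, from 4.89, 4.57 and 3.38 CPM in WT to 7.11, 6.16 and 6.54 CPM in KO (log2 change 0.58, adjusted p = 0.0358). Tap1 is also an interferon-driven gene of immune and other cells, and immune markers were higher in the same KO libraries, a link that was not tested. In brain footprints 0 of 28 passed, with Btg2 at -0.999 (adjusted p = 0.252) and Ei24 at -0.42 (adjusted p = 0.265) leading by p.

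Of the genes that control p53 or sense failing ribosomes, some gave calls in kidney footprints. The ribosomal protein genes Rpl5, Rpl11, Rpl23, Rps7 and Rps27, and Npm1, were tested there without a call, and their genotypes overlapped. Of 23, 21 were tested there, 5 rose and 0 fell, with a median of 0.19 against -0.01 over all transcripts, of which 4.75% were called higher. The 5 that rose, the other being Atm, encode proteins of over 400 residues, a class with a median of 0.10 in which 9.54% of genes were called higher. Atm (3066 residues), Atr (2641), Ep300 (2412) and Trp53bp1 (1969) are far longer than this limit, and Ncl has 707. Footprint change rose with length over coding genes, so this class is not matched to their length. Whether the calls exceed those of genes as long was not tested. Those with the smallest p were Atr, the kinase that answers stalled replication, which read 12.4, 12.6 and 13.1 CPM in WT and 19.8, 16.9 and 20.0 CPM in KO (log2 change 0.57, adjusted p = 0.0122), the acetyltransferase Ep300 (0.54, adjusted p = 0.0154), the p53-binding protein Trp53bp1 (0.46, adjusted p = 0.0367) and nucleolin, Ncl (0.40, adjusted p = 0.0401). In kidney RNA 0 of 21 passed, with Crebbp at 1.03 and Rpl23 at 0.66 leading (both adjusted p = 0.292), and KO replicates 2 and 3 held the highest CPM of both. In brain RNA 0 of 22 passed, and in brain footprints 0 of 20, where Atr stood at 0.46 (adjusted p = 0.253) and Ncl at 0.43 (adjusted p = 0.295). In the tissue by genotype test of footprints, 0 of 21 passed.

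The BCL2 family, to which Bax belongs, sets the threshold for mitochondrial cell death. Of 13 further members of the family, 12 were tested in kidney footprints, 0 passed and 8 lay below zero, with a median of -0.30 and with Bad at -0.52 (adjusted p = 0.0707) and Bik at -0.54 (adjusted p = 0.109) leading by p. In brain footprints 0 of 10 passed and 8 lay below zero, with a median of -0.31 and with Bcl2l2 at -0.47 (adjusted p = 0.318) and Bok at -0.43 (adjusted p = 0.382). These 13 proteins run from 103 (Pmaip1) to 331 residues (Mcl1). Among coding genes of at most 200 residues, 85.6% lay below zero in kidney footprints (median -0.24) and 84.5% in brain (median -0.19). Among those of over 200 and up to 400 residues, 66.7% (median -0.10) and 64.6% (median -0.07) did. So 8 of 12 and 8 of 10 are near these shares, while the family medians lay below the medians of both classes. RNA of the family gave medians of 0.08 in kidney and 0.13 in brain (0.10 in both over coding genes), with 0 of 13 and 0 of 12 past the test.

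Relatives of the members and the wider cell cycle gave single calls in kidney footprints, where 3.01% of all transcripts were called lower and 4.75% higher. Of 14 relatives, 11 were tested and 1 fell, Phlda2, a paralog of Phlda3, from 8.33, 7.86 and 9.70 CPM in WT to 7.70, 5.60 and 5.04 CPM in KO (log2 change -0.56, adjusted p = 0.0439). Phlda2 encodes 144 residues, and 10.1% of coding genes of at most 200 residues were called lower, so 1 in 11 is near that share. Of 15 cell cycle genes, 13 were tested and 1 fell, Cdkn2c, an inhibitor of CDK4 and CDK6, from 2.41, 3.43 and 3.75 CPM to 1.68, 1.77 and 1.47 CPM (log2 change -0.92, adjusted p = 0.0225). Cdkn2c footprints in brain were also lower without passing, at -2.00 (adjusted p = 0.112), but on 6 to 31 counts per library. Of 10 proliferation genes, 6 were tested in kidney footprints and 0 passed, with a median of 0.50 and with Top2a at 0.63 (adjusted p = 0.104) and Ccna2 at 0.76 (adjusted p = 0.107).

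Markers of other cells, and 1 of kidney, moved in the same kidney footprints and bear on any reading of them. In kidney RNA-seq, the immune markers summed to 86.7 to 119 CPM in WT and 113 to 128 CPM in KO, and 0 of 9 passed. The pancreas markers summed to 29.6 to 44.6 CPM in WT and 41.0 to 53.4 CPM in KO, with no counts for 8 of 12. So the RNA sums of both lists overlapped between genotypes. Beside the counts below, 4.75% of all transcripts were called higher and 3.01% lower. Of 9 immune markers, 8 were tested and 2 rose, Cd74 (0.63, adjusted p = 0.0182) and Ptprc (0.80, adjusted p = 0.0298). Of 6 markers of injured tubules, 5 were tested and 1 rose, Vcam1 (0.91, adjusted p = 0.0131), while Havcr1 (0.44, adjusted p = 0.315) and Lcn2 (0.12, adjusted p = 0.828), the usual signs of injury, did not pass. Of 8 kidney markers, 1 rose, Lrp2 (0.62, adjusted p = 0.0456). Of 12 pancreas markers, the 5 with enough counts to be tested all fell, with a median of -5.21. A marker with counts in the WT libraries alone can pass the count filter, so the direction of these 5 is only a description. The part of these cells in the values of the members was not tested.

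Finally, the members were placed by their level in WT tissue. Per kilobase of transcript, WT kidney RNA ran from Ccng1 (22.4 ± 1.36 CPM per kb, SD, n = 3) and Bax (17.3 ± 4.58) through Mdm2 (6.86 ± 1.60), Trp53 (3.54 ± 0.343), Cdkn1a (3.09 ± 2.07), Trp53inp1 (2.53 ± 0.137), Phlda3 (1.95 ± 0.656), Sesn1 (1.53 ± 0.0443) and Zmat3 (1.01 ± 0.171) to Eda2r (0.0239 ± 0.0203). Ccng1 and Bax stand above the rest, and each neighbour from Trp53 to Sesn1 lies within the larger SD of the pair. In WT brain the order was Bax (15.2 ± 2.54), Ccng1 (7.90 ± 1.67), Phlda3 (6.91 ± 1.01), Mdm2 (5.41 ± 0.394), Cdkn1a (4.60 ± 1.18), Sesn1 (4.23 ± 0.245), Zmat3 (3.91 ± 0.645), Trp53 (3.20 ± 0.194), Trp53inp1 (0.919 ± 0.146) and Eda2r (0.0265 ± 0.0193). There Bax stands above the rest, and Ccng1 and Phlda3, and each neighbour from Mdm2 to Zmat3, lie within the larger SD of the pair.

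Between WT tissues, 6 of 10 members passed the test, against 61.0% of 92865 transcripts (34.3% higher in brain and 26.7% lower), and 7 had an unadjusted p under 0.05 (64.7% of all). Higher in brain were Zmat3 (log2 difference 1.69, fold 3.24, adjusted p = 2.31e-06), Phlda3 (1.57, fold 2.96, adjusted p = 0.000141) and Sesn1 (1.21, fold 2.31, adjusted p = 9.34e-06). Lower in brain were Ccng1 (-1.76, fold 0.295, adjusted p = 8.31e-07), Trp53inp1 (-1.72, fold 0.303, adjusted p = 1.99e-06) and Mdm2 (-0.60, fold 0.658, adjusted p = 0.0188). Trp53 (-0.40, adjusted p = 0.0747), Bax (-0.44, adjusted p = 0.104), Cdkn1a (0.32, interval -0.60 to 1.23) and Eda2r (-0.09, interval -2.12 to 1.95) did not pass. Tissue and library batch cannot be told apart here, since each library holds 1 tissue.

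**Figure D4:**
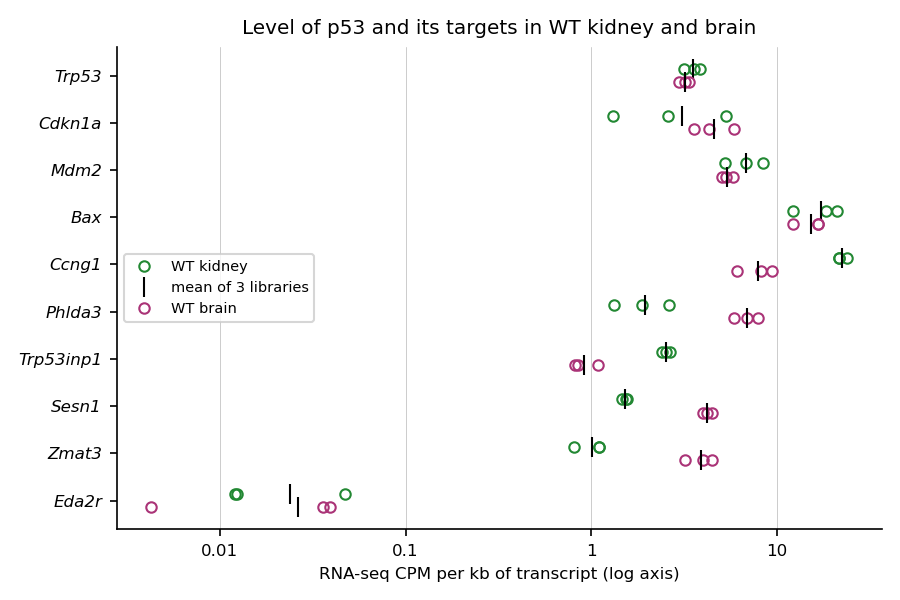
RNA-seq CPM per kilobase of transcript (log axis) of the 10 members in 3 WT kidney (green) and 3 WT brain (purple) libraries, with a bar for each mean. Ccng1 and Trp53inp1 sit higher in kidney and Phlda3, Sesn1 and Zmat3 higher in brain, without overlap. As plotted, Cdkn1a, Bax, Mdm2 and Trp53 overlap, and Eda2r lies far below the others in both. Each tissue was scaled on its own, so overlap here is not judged on 1 common scale. The test between tissues scaled all libraries together, and Mdm2 passed it.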

How the data were processed

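The authors trimmed reads with cutadapt, removed rRNA reads with STAR, aligned the rest with STAR to GRCm38 with multimapping reads allowed, and counted them per transcript with featureCounts from Subread. The deposited values are whole-number counts per transcript of 30 mouse libraries, not normalized. The 28 per-sample columns of a separate table were not used. Transcripts were named from GENCODE M21. Members and lists were chosen with earlier results of these data known. Transcripts were filtered by filterByExpr, scaled by TMM and tested with the quasi-likelihood test of edgeR 4.0.16 in R 4.3.3, within each tissue and assay or, for TE, disome and tissue differences, by an interaction term, and p-values were adjusted by Benjamini-Hochberg across every transcript in the test, with a threshold of 0.05. DESeq2 1.42.0, limma 3.58.1 (voom with quality weights), other filters and scaling, a replicate block and leaving out libraries were the alternatives. Scripts were tested on simulated data. All 10 members are named. In each list, up to 4 genes past the threshold are named, smallest p at the head, otherwise up to 2 with the smallest p. Havcr1 and Lcn2 were added after their values were seen. Floors of 3 counts cover counting error only.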

Additional observations from a re-analysis of the deposited data

How the results depend on the processing

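The number of members called stayed within 1.5 times of the values in the report in all but 5 of 194 recomputed counts. In kidney RNA, limma voom called 1 member, Mdm2, at 0.49 (adjusted p = 0.00987). In brain RNA, leaving out WT replicate 3 and KO replicate 1 together, chosen after the data were seen, gave 1 call, Ccng1, at -0.32. Those libraries stood low for the members, so this call is not a test of Ccng1. In kidney footprints, leaving out single libraries gave 0 to 1 calls, with 0 without WT replicate 2, KO replicate 2 or KO replicate 3. With libraries left out, 112 of 978 member values had the other sign, and 57 of 780 under the other settings. In 9 of the 112 the value also moved by more than its standard error. These 9 belong to 8 results, whose range over left-out libraries follows. Cdkn1a ran from -0.66 (-0.65 with single libraries left out) to 0.38 in kidney RNA, -0.71 to 0.18 in kidney footprints, -0.15 to 0.85 in the tissue difference of RNA and -0.19 to 0.71 in that of footprints. Ccng1 ran from -0.33 to 0.25 and Phlda3 from -0.34 to 0.52 in disomes relative to footprints, Trp53inp1 from -0.23 to 0.20 in kidney footprints and Eda2r from -1.87 to 4.20 in kidney TE. Same-numbered libraries did not deviate together in every pair (r from -0.72 to 0.56), so the replicate block stands here only: with it, 1 member, Bax, was called in kidney footprints (-0.52, adjusted p = 0.0355), with 4010 transcripts called in place of 5838. The count of transcripts called in kidney RNA ran from 0 to 29361 over the alternatives, in kidney footprints from 285 to 10106 and in brain RNA from 0 to 9281; the cause was not tested. Between WT tissues, 5 to 9 members were called. Depth limits Eda2r in every set and 4 of the members in disomes.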
